A study of Mus musculus with 10 samples.

Results

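Neurexins, neuroligins and leucine-rich repeat transmembrane (Lrrtm) proteins are adhesion molecules of the synapse, and their genes were examined here in the mouse cerebral cortex at postnatal day 8. The set was chosen by name from the deposited count table and holds 9 of its 30935 genes: the neurexin genes Nrxn2 and Nrxn3, the neuroligin genes Nlgn1, Nlgn2 and Nlgn3, and Lrrtm1, Lrrtm2, Lrrtm3 and Lrrtm4. RNA was sequenced from 5 wild-type mice (replicates 2, 4, 5, 6 and 7) and 5 mice homozygous for the deletion ΔHAR.505 in the Rbfox1 locus (replicates 1, 3, 5, 6 and 8), called knockout below. All animals were of the same age, and the samples are described as independent biological samples, while the sources used here do not give the sex, the litters or the number of founders of the deletion line. The comparison asks whether cortical transcript levels differ when the element, a human accelerated region studied as a possible enhancer, is deleted.

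Neurexins sit in the presynaptic membrane and reach across the cleft to bind neuroligins and Lrrtm proteins on the postsynaptic side. Neuroligin-1 is found mainly at excitatory synapses, neuroligin-2 mainly at inhibitory synapses and neuroligin-3 at both, and the Lrrtm proteins are known from excitatory synapses. Neurexin genes use separate promoters for long (alpha) and short (beta) forms and are spliced extensively. A gene total sums all these forms, so none of them is resolved here.

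The 10 libraries held 16479594 to 22391943 counts, and each of the 9 genes had between 706 and 22334 counts per library. Markers of cortical excitatory neurons were present in every library, with the vesicular glutamate transporter gene Slc17a7 at 805 to 1075 CPM (counts relative to the library total, scaled with TMM factors) and the cortical transcription factor gene Tbr1 at 104 to 130.1 CPM. Of the markers of other cell types and neighbouring tissues, 1 of 10 interneuron, 2 of 12 striatal and 2 of 11 choroid plexus and ependymal genes were called lower in knockout. The summed level of the striatal projection neuron markers was 412 to 557 CPM in the wild-type libraries and 325 to 454 CPM in knockout, and that of the choroid plexus and ependymal markers 341 to 429 CPM and 106 to 346 CPM. On this summed measure the genotypes overlapped for both lists. The summed level of 8 pan-neuronal markers (7462 to 7946 CPM in wild type, 7309 to 7819 CPM in knockout) and of 9 astrocyte markers (3416 to 3894 CPM and 3594 to 4205 CPM) overlapped as well. In bulk tissue, fewer cells of a type and less RNA per cell cannot be told apart. Rbfox1 itself ranged from 205 to 238 CPM in the wild-type libraries and 191 to 247 CPM in knockout (log2 fold change -0.06, SE 0.063), and since the deleted element is noncoding, this count does not check the genotype labels.

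The genes differ widely in extent, which bears on how their totals are read. In the GENCODE M21 annotation of GRCm38, a build older than the mm39 of the deposited counts, Nrxn3 spans 1612060 bp of chromosome 12, Nlgn1 906246 bp of chromosome 3 and Lrrtm4 791267 bp of chromosome 6, whereas Nlgn2 spans 14663 bp of chromosome 11. Nrxn2 lies on chromosome 19, Nlgn3 on chromosome X, Lrrtm1 on chromosome 6 and Lrrtm3 on chromosome 10. Lrrtm1, Lrrtm2 and Lrrtm3 each lie on the opposite strand within an alpha-catenin gene (Ctnna2, Ctnna1 and Ctnna3), with an exon overlap of 95 bp for Lrrtm2 and 0 bp for the other two. Other annotated transcripts share 41.2% of the exon bases of Nlgn3 (Gm21986, same strand), 25.1% of those of Lrrtm4 (Gm4409, opposite strand) and 9.16% of those of Nlgn1 (A830092H15Rik, opposite strand). The sources used here do not give the strand setting of the counting, so reads from these overlaps cannot be assigned with certainty.

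Upstream sequences were listed by RefSeq (GRCm38.p6) for 6 of the 9 genes, at 10 annotated starts. Those shown are the start of the short coding form of Nrxn3 and the starts of the neuroligin genes with the highest and the lowest level, to show how unlike these starts are in base composition. Each line gives the 250 bases before the start, 5′ to 3′ on the gene's strand, with CpG dinucleotides in capitals.
Nrxn3, short form, chr12:89812233-89812482, plus strand: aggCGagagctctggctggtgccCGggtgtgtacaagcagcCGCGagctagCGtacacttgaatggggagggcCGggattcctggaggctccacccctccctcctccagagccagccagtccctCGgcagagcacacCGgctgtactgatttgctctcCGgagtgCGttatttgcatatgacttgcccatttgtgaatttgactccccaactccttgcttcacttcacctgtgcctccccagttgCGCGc
Nlgn2, chr11:69837785-69838034, minus strand: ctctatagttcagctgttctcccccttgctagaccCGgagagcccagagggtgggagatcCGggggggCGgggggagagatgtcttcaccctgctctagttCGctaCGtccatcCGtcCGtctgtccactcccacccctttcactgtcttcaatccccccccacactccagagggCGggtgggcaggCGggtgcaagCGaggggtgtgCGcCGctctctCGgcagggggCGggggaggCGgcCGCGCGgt
Nlgn1, upstream start, chr3:26331910-26332159, minus strand: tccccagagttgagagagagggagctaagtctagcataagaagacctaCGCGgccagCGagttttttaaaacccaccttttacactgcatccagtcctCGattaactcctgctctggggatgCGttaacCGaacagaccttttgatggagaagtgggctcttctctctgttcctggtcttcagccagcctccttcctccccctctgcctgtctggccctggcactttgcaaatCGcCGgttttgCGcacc
The Nlgn2 window held 18 CpG dinucleotides (CG), a number reached by 21.7% of the 32841 promoter windows of that length in the table, against 9 in the Nlgn1 window (40.3%) and 12 in the Nrxn3 window (33.5%). The longest coding sequence among GENCODE transcripts that start within 1000 bp of this Nrxn3 start is 1701 bp, against 4713 bp for the gene as a whole. The motif TATAAA, searched on both strands, was in 12.4% of all windows and in none of these 3. These are descriptions of the letters in the windows, with no bearing tested on the levels below.

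Nlgn2 led the neuroligins, Nrxn2 the pair of neurexins, and Lrrtm1 or Lrrtm2, depending on the length used, the Lrrtm genes. Levels of different genes were compared as CPM per kb of length, with the union of all annotated exons as the main length and the longest coding sequence as the alternative. Among the neuroligins the order was Nlgn2, Nlgn3, Nlgn1 by both lengths, and no library of one overlapped with any library of the next. Per kb of exon union, Nlgn2, the inhibitory-synapse neuroligin, stood at 71.7 ± 2.34 CPM (SD, n = 10), Nlgn3 at 22.7 ± 1.32 and Nlgn1 at 8.97 ± 0.53. Of the summed neuroligin level per kb, Nlgn2 made up 69.4%, Nlgn3 22% and Nlgn1 8.67% on average over the 10 libraries. Per kb of coding sequence these shares were 55.9%, 28.1% and 16.1%, since the exon union of Nlgn1 (13422 bp) is far longer than its coding sequence (2529 bp).

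Nrxn2 stood above Nrxn3 in every library and by both lengths. Per kb of exon union their levels were 71.0 ± 2.66 and 13.5 ± 1.11 CPM (SD, n = 10), and Nrxn2 made up 84.0% of the pair. In that scale Nrxn2 and Nlgn2 did not differ beyond their spread: Nlgn2 was the higher of both in 5 of 10 libraries. Per kb of coding sequence Nrxn2 (191 ± 7.17 CPM) lay above Nlgn2 (165 ± 5.39 CPM) in all 10 libraries without overlap, so the order of these leading genes depends on the length used.

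Among the Lrrtm genes, Lrrtm1 and Lrrtm2 stood above Lrrtm3 and Lrrtm4 by both lengths, without overlap over the libraries. Per kb of exon union Lrrtm1 stood at 26.4 ± 1.44 CPM (SD, n = 10), Lrrtm2 at 15.3 ± 1.39, Lrrtm3 at 10.9 ± 0.727 and Lrrtm4, the lowest of the 9 genes, at 7.33 ± 0.687. The ranges of these 4 genes did not overlap. Per kb of coding sequence Lrrtm2 (50.8 to 71.2 CPM) and Lrrtm1 (47.5 to 56.7 CPM) overlapped and changed places, and Lrrtm3 (24.1 to 28.7 CPM) and Lrrtm4 (22.2 to 28.7 CPM) overlapped as well.

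**Figure D1:**
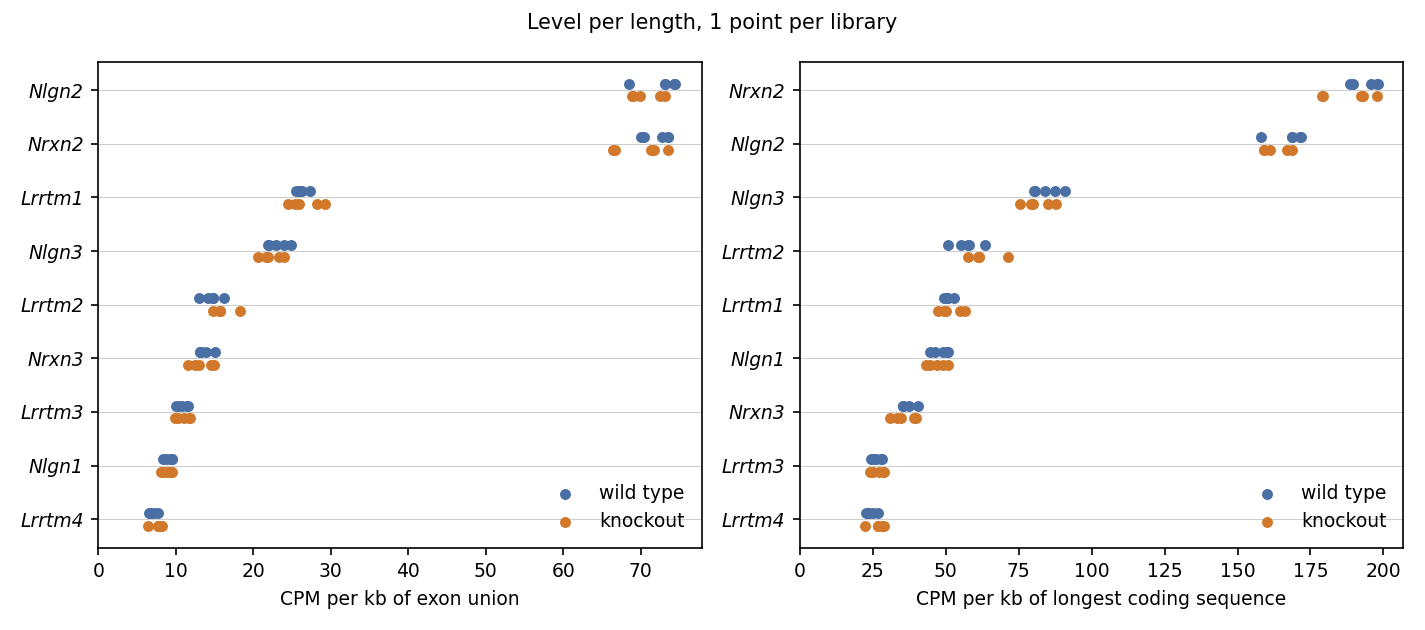
CPM per kb of length for the 9 genes, 1 point per library (blue: wild type, orange: knockout), ordered from highest to lowest mean, with the union of annotated exons as length on the left and the longest coding sequence on the right. Nlgn2 and Nrxn2 stand apart from the other 7 genes in both panels, and their order depends on the length used.

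No gene of the set passed the test between the genotypes. edgeR's quasi-likelihood test, fitted on all 15488 genes that passed the filter on low counts and with Benjamini-Hochberg adjustment over them, called 59 genes (0.381%) at an adjusted p under 0.05. All 9 members passed the filter, 0 were called, and 1, Lrrtm2, had an unadjusted p under 0.05, a level that 8.71% of all tested genes reached. 0 members were called by DESeq2 or limma-voom, where the number with an unadjusted p under 0.05 was 0 and 1. Without overlap between the genotypes stood 0 of 9 members, against 1.83% of all tested genes (0.897% with knockout lower). The log2 fold change was below 0 for 5 of the 9 genes and for 50.9% of all tested genes, with medians of -0.04 and -0.0021.

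Neither presynaptic gene was called between the genotypes. Nrxn2 was measured in wild-type replicates 2, 4, 5, 6 and 7 at 1016, 972, 1015, 1004 and 968 CPM, and in knockout replicates 1, 3, 5, 6 and 8 at 1015, 986, 989.9, 917 and 920.3 CPM. Knockout replicates 6 and 8 lay below all other libraries, and the other 3 knockout libraries lay within the wild-type range. The log2 fold change was -0.04 (SE 0.042, adjusted p = 0.861), and its 95% interval covered folds of 0.915 to 1.03. Nrxn3 stood at 166, 166, 176, 190.4 and 167 CPM in the wild-type libraries and 184, 163, 188, 146 and 157 CPM in knockout, in the same order of replicates. The wild-type range lay within the knockout range except for wild-type replicate 6, the highest library. The log2 fold change was -0.05 (SE 0.061, adjusted p = 0.911), with an interval of the fold change from 0.888 to 1.06.

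The neuroligin genes, which encode postsynaptic neurexin receptors, all had fold changes just under 1. Nlgn1 stood at 113, 117, 129, 124 and 127 CPM in the wild-type libraries and 124, 109, 128, 119 and 113 CPM in knockout. Both genotypes covered nearly the same range, and the log2 fold change was -0.04 (SE 0.054, adjusted p = 0.912, interval of the fold change 0.901 to 1.05). Nlgn2 stood at 423, 423, 429.8, 431 and 396 CPM in the wild-type libraries and 423, 399, 399, 419 and 404 CPM in knockout. The 4 wild-type libraries other than replicate 7 were close together at the top of the range, and replicate 7 was the lowest of all 10. The log2 fold change was -0.04 (SE 0.043, adjusted p = 0.883, interval of the fold change 0.914 to 1.03). Nlgn3, whose product is found at both synapse types, stood at 203, 222, 213, 231 and 204 CPM in the wild-type libraries and 201, 216, 223, 191 and 202 CPM in knockout. Knockout replicate 6 was lowest and wild-type replicate 6 highest, with the others mixed, and the log2 fold change was -0.06 (SE 0.050, adjusted p = 0.853, interval of the fold change 0.896 to 1.03).

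The Lrrtm genes held the largest fold changes of the set, in Lrrtm2 and Lrrtm4. Lrrtm2, whose product binds neurexins and helps to hold AMPA receptors at the synapse, stood at 78.5, 98.0, 85.4, 89.3 and 89.5 CPM in the wild-type libraries and 94.2, 110.0, 89.1, 94.7 and 94.6 CPM in knockout. Knockout replicate 3 was highest and wild-type replicate 2 lowest, and wild-type replicate 4 lay above 4 of the 5 knockout libraries. The log2 fold change was 0.13 (SE 0.062, unadjusted p = 0.0411, adjusted p = 0.534), with an interval of the fold change from 1.0 to 1.2. This fold change had an unadjusted p under 0.05 in 13 of the 21 other fits. It stood at 0.17 (unadjusted p = 0.0115) without wild-type replicate 4 and 0.16 (unadjusted p = 0.0170) without knockout replicate 5. It was 0.08 (unadjusted p = 0.195) without knockout replicate 3, 0.09 (unadjusted p = 0.151) without wild-type replicate 2 and 0.12 (unadjusted p = 0.0771) without wild-type replicate 5. It was 0.10 (unadjusted p = 0.194) without knockout replicates 3, 5 and 6. With the replicate number as a block it was 0.07 (unadjusted p = 0.565). In that fit only replicates 5 and 6, found in both genotypes, inform the difference. It was 0.03 (unadjusted p = 0.806) with the mean log2 level of the striatal markers as a covariate. With that of the choroid markers it was 0.04 (unadjusted p = 0.686). Both means were lower in every knockout library than in every wild-type library, so neither covariate can be fully told apart from genotype.

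Lrrtm4, which encodes a protein that also binds heparan sulfate proteoglycans, stood at 40.0, 41.9, 44.5, 41.3 and 47.3 CPM in the wild-type libraries and 51.0, 47.7, 47.4, 39.3 and 50.1 CPM in knockout. Every knockout library except replicate 6 lay above every wild-type library, and replicate 6 was the lowest of all 10. The log2 fold change was 0.13 (SE 0.072, unadjusted p = 0.0796, adjusted p = 0.651, interval of the fold change 0.989 to 1.21). It was 0.19 (unadjusted p = 0.0101) without knockout replicate 6, 0.17 (unadjusted p = 0.0329) without wild-type replicate 7, 0.23 (unadjusted p = 0.0104) without knockout replicates 3, 5 and 6, the libraries lowest in choroid markers, 0.20 (unadjusted p = 0.139) with the striatal covariate and 0.22 (unadjusted p = 0.0555) with the choroid covariate. It was 0.10 (unadjusted p = 0.195) without knockout replicate 1 and 0.11 (unadjusted p = 0.151) without knockout replicate 8. Without wild-type replicate 2 it was 0.11 (unadjusted p = 0.181). With the replicate number as a block, where only replicates 5 and 6 inform the difference, it was 0.0099 (unadjusted p = 0.946). The unadjusted p was under 0.05 in 3 of the 21 other fits, and adjusted p did not fall below 0.387 in any of them.

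Lrrtm1 and Lrrtm3 showed little difference of their means. Lrrtm1 stood at 78.4, 79.8, 83.0, 79.0 and 77.6 CPM in the wild-type libraries and 85.7, 78.4, 74.4, 88.8 and 77.1 CPM in knockout. The wild-type libraries lay within the wider knockout range, and the log2 fold change was 0.02 (SE 0.057, adjusted p = 0.954, interval of the fold change 0.939 to 1.10). Lrrtm3 stood at 45.9, 49.3, 48.7, 42.9 and 43.8 CPM in the wild-type libraries and 49.9, 50.1, 47.2, 42.1 and 43.5 CPM in knockout. Both genotypes covered about the same range, and the log2 fold change was 0.01 (SE 0.068, adjusted p = 0.985, interval of the fold change 0.918 to 1.11).

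**Figure D2:**
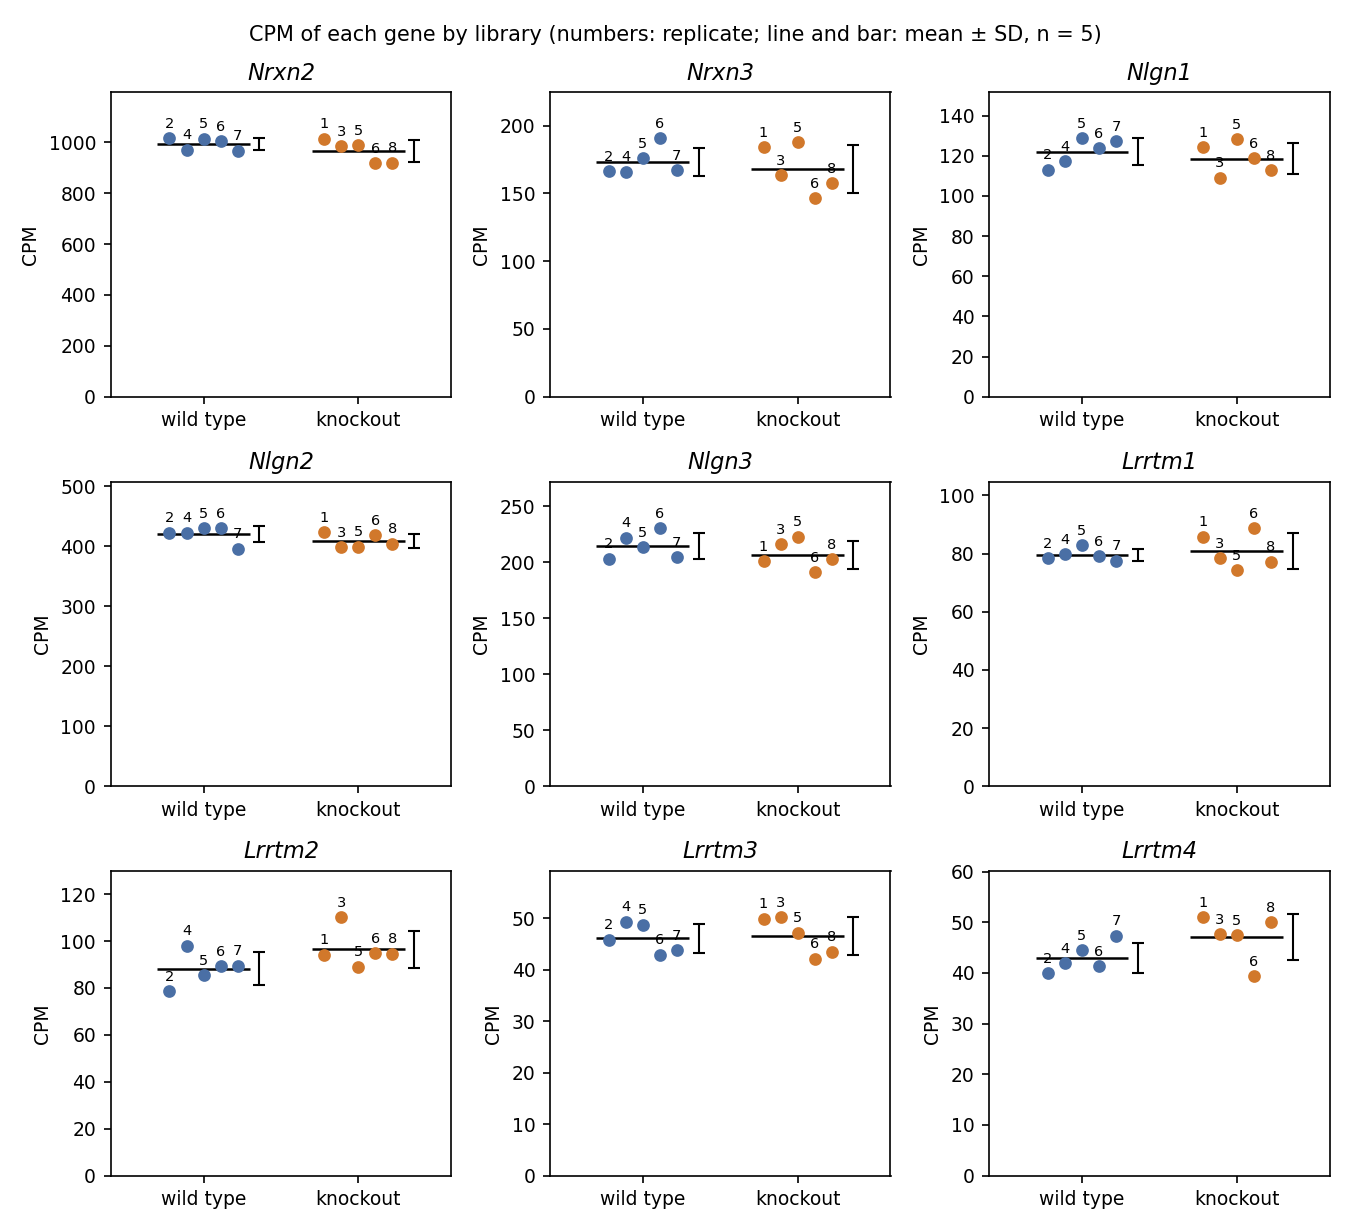
CPM of each of the 9 genes in wild-type (blue) and knockout (orange) libraries on axes that start at 0; numbers give the replicate, and the line and bar the mean ± SD (n = 5). The genotypes overlap in all 9 panels, and knockout replicate 6 is the lowest library for Nrxn2, Nrxn3, Nlgn3, Lrrtm3 and Lrrtm4.

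The balance within each family was also compared, since a ratio of 2 counts from the same library does not depend on how libraries are scaled. Nrxn2 had 5.76 ± 0.303 times the counts of Nrxn3 in wild type and 5.79 ± 0.398 times in knockout (SD, n = 5). Nlgn2 had 1.96 ± 0.0858 times the counts of Nlgn3 in wild type and 1.99 ± 0.170 times in knockout, and the ratio of Nlgn1 to Nlgn2 was 0.291 ± 0.0207 and 0.290 ± 0.0190. The ratio of Lrrtm2 to Lrrtm3 was 1.92 ± 0.170 and 2.08 ± 0.176, with the lowest exact p of the 10 ratios. Exact two-sided permutation tests of the log2 ratios over all assignments of the libraries gave p between 0.183 and 1.0 (adjusted over the 10 ratios, 0.820 to 1.0), where the smallest p possible is 0.00794. The genotypes overlapped in all 10 ratios.

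Over the libraries, Nlgn2 and Nrxn2 were among the steadiest genes. The SD of log2 CPM over the 10 libraries was 0.047 for Nlgn2 and 0.055 for Nrxn2, and 1.90% and 4.45% of the 10306 tested genes with a mean of at least 10 CPM had a lower SD. The median SD of those genes was 0.114. Lrrtm4 (SD 0.136), Lrrtm2 (0.129) and Nrxn3 (0.119) lay above that median, and Nlgn1, Nlgn3, Lrrtm1 and Lrrtm3 below it. From the lowest to the highest library the level differed by 1.09 times for Nlgn2 and 1.40 times for Lrrtm2, the narrowest and the widest range of the set. The share of the level in these SDs was not tested, and Nlgn2 and Nrxn2 are also the members with the most counts.

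Covariation among the 9 genes was weak at this number of libraries. Of 36 pairs, 24 had a positive Pearson r of log2 CPM over the 10 libraries, with a median of 0.098 and a range from -0.57 to 0.78. 0 pairs passed the permutation test with adjustment over the 36 pairs, and 2 had an unadjusted p under 0.05. By Spearman's rho 0 passed as well, and the 2 pairs with an unadjusted p under 0.05 were other ones. They were Nrxn2 with Lrrtm2 (rho -0.70, permutation p = 0.0305) and Nrxn3 with Nlgn1 (rho 0.673, permutation p = 0.0388), both with adjusted p = 0.401. Nrxn2 and Nrxn3 had the highest r, 0.776 (permutation p = 0.00774, adjusted p = 0.279), with Spearman's rho 0.636 (permutation p = 0.0549, adjusted p = 0.401). Without the 2 libraries farthest from the median of Nrxn2, knockout replicates 6 and 8, r was 0.432, a comparison over a narrower range of Nrxn2. Leaving out 1 library at a time gave an r of 0.636 (without knockout replicate 6) to 0.859 (without wild-type replicate 2). Nrxn3 and Nlgn3 had an r of 0.675 (permutation p = 0.0323, adjusted p = 0.510) and a rho of 0.564 (permutation p = 0.0954, adjusted p = 0.434), and r was 0.237 without the 2 libraries farthest from the median of Nrxn3. Centred within genotype, these pairs had an r of 0.772 and 0.654. Without wild-type replicate 2, 2 pairs passed: Nrxn2 with Nrxn3 (r 0.859, permutation p = 0.00242, adjusted p = 0.0436) and Nlgn1 with Lrrtm2 (r -0.88, permutation p = 0.00083, adjusted p = 0.0299). With all 10 libraries the latter pair had an r of -0.42.

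Knockout replicate 6 was the lowest of the 10 libraries for 5 of the 9 genes and the highest for Lrrtm1. That library also had the lowest summed pan-neuronal level (7309 CPM) and the highest summed astrocyte level (4205 CPM), and the part of this in the levels of the 9 genes was not tested. Each gene was set against the mean log2 CPM of 11 marker lists, giving 99 relations, of which 0 passed with adjustment over all 99 and 6 had an unadjusted permutation p under 0.05. The smallest p among these 6 was that of Nlgn1 with the interneuron list, with an r of 0.695 (permutation p = 0.0201, adjusted p = 0.512) and a rho of 0.503 (permutation p = 0.143, adjusted p = 0.908), and r was 0.097 without the 2 libraries farthest from the median of the list. Lrrtm2 had an r of -0.70 with the interneuron list (permutation p = 0.0238, adjusted p = 0.512) and a rho of -0.58 (permutation p = 0.0887, adjusted p = 0.908), and r was -0.33 without the 2 farthest libraries. With the microglia list its r was 0.692 (permutation p = 0.0259, adjusted p = 0.512) and its rho 0.697 (permutation p = 0.0312, adjusted p = 0.908), and r was 0.442 without the 2 farthest libraries. The highest r was that of Lrrtm4 with the pan-neuronal list, 0.716 (permutation p = 0.0212, adjusted p = 0.512), with a rho of 0.624 (permutation p = 0.0610, adjusted p = 0.908) and an r of 0.505 without the 2 libraries farthest from the median of the list. Lrrtm2 had an r of -0.72 with the thalamic list (permutation p = 0.0214, adjusted p = 0.512) and a rho of -0.66 (permutation p = 0.0445, adjusted p = 0.908), and r was -0.64 without the 2 farthest libraries. Lrrtm1 had an r of 0.661 with the oligodendrocyte list (permutation p = 0.0385, adjusted p = 0.636) and a rho of 0.515 (permutation p = 0.134, adjusted p = 0.908), and r was 0.952 without the 2 farthest libraries. Centred within genotype, r for Lrrtm2 was -0.56 (interneuron, permutation p = 0.0889), 0.619 (microglia, permutation p = 0.0566) and -0.57 (thalamic, permutation p = 0.0778). For the other relations centred r was 0.705 (Nlgn1, permutation p = 0.0236), 0.818 (Lrrtm4, permutation p = 0.00318) and 0.651 (Lrrtm1, permutation p = 0.0418). The lowest adjusted p of these 6 centred relations was 0.315, for Lrrtm4.

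**Figure D3:**
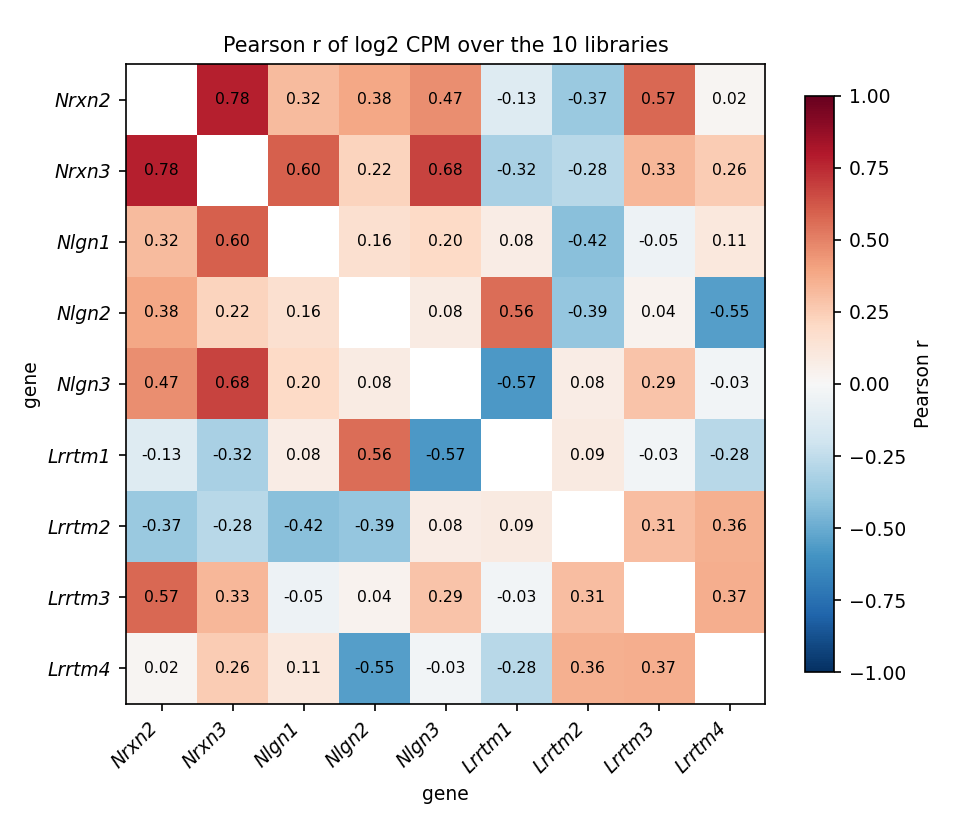
Pearson r of log2 CPM over the 10 libraries for the 36 pairs of the 9 genes, each pair shown on both sides of the diagonal (red: positive, blue: negative). The highest value is that of Nrxn2 with Nrxn3 (0.78) and the lowest that of Nlgn3 with Lrrtm1 (-0.57).

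The genes whose pattern over the 10 libraries was most like that of a member were sought among 10087 named genes with a mean of at least 10 CPM, by Pearson r of log2 CPM and as a description only. Lrrtm1 was most like Bcas1, a gene of maturing oligodendrocytes (r 0.962), and Lrrtm2 most like Hsp90aa1, a chaperone gene (r 0.954). The next in these 2 orders were Tnk2 (0.908) and Lims1 (0.937). For Nrxn2 they were Bod1l (0.907) and Elac2 (0.887), for Nrxn3 Ap3d1 (0.935) and Celsr2 (0.926), for Nlgn1 Ddx51 (0.921) and Rmc1 (0.917), and for Nlgn2 Sumf1 (0.921) and Zxda (0.916). For Nlgn3 they were Dip2c (0.914) and Esyt2 (0.907), for Lrrtm3 Usp37 (0.887) and Eif6 (0.865), and for Lrrtm4 Atp10d (0.914) and Tmeff1 (0.910). No other member of the set was among these genes, and all these values come from the same 10 libraries. Values picked as the highest among 10087 genes are also high by that choice. Bcas1 is itself in the oligodendrocyte list, so its r and that of this list with Lrrtm1 share a gene.

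The wider pathway was covered by 8 lists with 79 genes, of which 78 passed the filter on low counts. 0 of the 78 were called between the genotypes (background 0.381%), and 14 had an unadjusted edgeR p under 0.05, 9 higher and 5 lower in knockout. That is 9 of 78 higher beside 4.19% of all tested genes, and 5 of 78 lower beside 4.52%. The lists were written with earlier results of these data known, so these shares are a description only. The median log2 fold change was 0.02. The gene nearest to the threshold was Lrrc4c, which encodes the netrin-G ligand NGL-1, at 109 ± 5.20 CPM in the wild-type libraries and 126 ± 6.83 CPM in knockout (SD, n = 5 each), and its log2 fold change was 0.21 (SE 0.052, adjusted p = 0.0632).

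Secreted proteins that bridge neurexins to other receptors, and further neurexin ligands, made up 16 tested genes, with 0 called and a median log2 fold change of 0.06. Cbln1, which encodes the secreted bridge cerebellin-1, stood at 32.8 ± 2.24 CPM in the wild-type libraries and 41.1 ± 7.16 CPM in knockout (log2 fold change 0.32, SE 0.094, adjusted p = 0.184). Nxph3, which encodes a neurexophilin that binds alpha-neurexins, stood at 42.3 ± 4.61 and 48.1 ± 2.20 CPM (0.19, SE 0.072, adjusted p = 0.381). Of the genes for the Mdga proteins, which cover neuroligins and keep neurexins from them, Mdga2 stood at 73.1 ± 4.17 and 64.9 ± 3.04 CPM (-0.17, SE 0.058, adjusted p = 0.277) and Mdga1 was at -0.08 on that scale (SE 0.13).

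Other adhesion systems of the synapse gave the same count of 0 called genes. Among 13 genes of LAR-type receptor phosphatases and their partners, the log2 fold change was 0.33 for Il1rap (SE 0.094, adjusted p = 0.153) and 0.09 for Slitrk1 (SE 0.057). Among 11 netrin-G ligand, SALM and Elfn genes, Lrfn1 followed Lrrc4c at -0.06 (SE 0.051). Among 14 latrophilin, teneurin, Flrt and SynCAM genes, 4 were lower and 2 higher at an unadjusted p under 0.05. Of all tested genes, 4.52% were lower and 4.19% higher at that level. Tenm1 stood at 119 ± 13.7 CPM in the wild-type libraries and 95 ± 11.3 CPM in knockout (-0.33, SE 0.085, adjusted p = 0.153), and its paralog Tenm2 at 194 ± 18.9 and 221 ± 20.2 CPM (0.19, SE 0.068, adjusted p = 0.348).

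Inside the cell, 16 scaffold and adaptor genes had log2 fold changes between -0.10 and 0.11. Dlg4, which encodes the scaffold PSD-95 that neuroligins bind, differed by 0.09 on the log2 scale (SE 0.043, adjusted p = 0.526), and Apba1, which encodes the presynaptic adaptor Mint1, by 0.09 (SE 0.042, adjusted p = 0.537). Of the STAR-family splicing regulators that act on an alternative segment of neurexins, Khdrbs3 stood at 130.3 ± 7.39 and 148 ± 11.4 CPM (0.18, SE 0.055, adjusted p = 0.187) and Khdrbs1 at -0.08 (SE 0.049). Of the alpha-catenin genes that enclose Lrrtm genes, Ctnna1, the host of Lrrtm2, was at a log2 fold change of 0.09 (SE 0.061), and Ctnna3, with a mean of 0.893 CPM in the wild-type and 1.2 CPM in the knockout libraries, at 0.43 (SE 0.36).

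**Figure D4:**
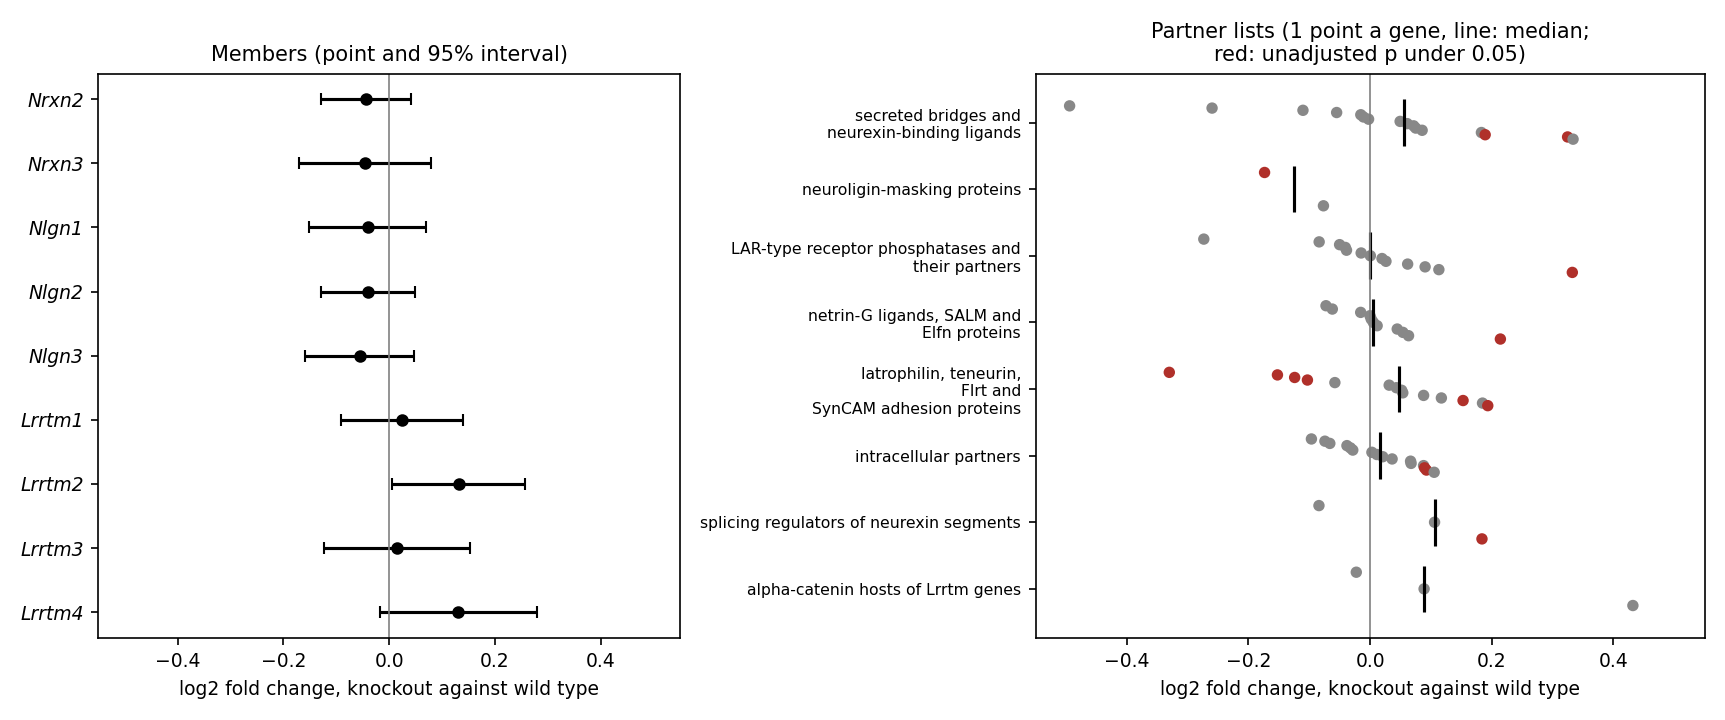
Log2 fold changes of knockout against wild type: on the left the 9 genes with 95% intervals, on the right the tested genes of the 8 partner lists, 1 point a gene, with the list median as a line and genes with an unadjusted p under 0.05 in red. The 9 genes lie between -0.06 and 0.13, and no gene in either panel passed the test over all genes.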

How the data were processed

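The authors deposited 1 table of raw whole-number counts per gene with Entrez identifiers, made with HISAT2 and featureCounts on mm39, per the submitters' processing notes. Versions, gene annotation, strand setting and the handling of multiply aligned reads were not found in the labels. Symbols came from a RefSeq table of GRCm38.p6, which matched 30648 of 30935 identifiers. Exon and coding lengths came from GENCODE M21, since that table gives the genomic span and not the planned exon length.

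The counts were tested with edgeR 4.0.16 (R 4.3.3): filterByExpr, TMM factors and the robust quasi-likelihood F test of genotype over all 10 libraries, two-sided, with Benjamini-Hochberg adjustment over 15488 genes. SEs were derived from the F statistic. Log2 CPM used a prior count of 2, and correlations 100000 permutations. The alternatives used DESeq2 1.42.0 and limma 3.58.1, other scalings and filters, left-out libraries, a replicate block and 2 marker covariates. The procedure was tested on simulated data, with 100 genes changed by a fold of 1.2 and 100 by a fold of 1.5. It called 49% and 96% of these, and 10 unchanged genes. Libraries of a genotype differed by more than sampling noise (chi-square per degree of freedom 4.10 to 13.9), so each counted as 1 replicate. Members and lists were chosen with earlier results of these data known. The genes named are the members, the 2 of each pathway list with the smallest p, and the 2 most alike to each member.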

Additional observations from a re-analysis of the deposited data

Results flagged for a closer look

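In 5 of 70 groups of 5 libraries examined (levels of the 9 genes and of the named pathway genes, and the 10 ratios), 1 library lay far from the other 4, where chance gives about 1 in 20. Wild-type replicate 7 had the lowest Nlgn2 level, 396 CPM against 423 to 431 in the other wild-type libraries. Knockout replicate 3 had the highest Lrrtm2 level among the knockout libraries, 110.0 CPM against 89.1 to 94.7. Knockout replicate 6 had the highest ratio of Lrrtm1 to Lrrtm4 counts, 2.26 against 1.54 to 1.68. Among the pathway genes, knockout replicate 1 was low for Nxph3 (44.2 CPM against 48.8 to 49.6) and wild-type replicate 2 for Slitrk1 (64.2 CPM against 72.7 to 75.6).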

How the results depend on the processing

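0 of the 9 genes were called in each of the 21 alternative fits, 0 of 10 ratios in each of 10 comparisons without 1 library, and 0 of 99 marker relations after centring within genotype. The number of genes called among all tested genes, 59, became 171 with no filter on low counts, 124 with DESeq2 and 12 without knockout replicates 3, 5 and 6. It became 0 with the striatal covariate and 0 with the choroid covariate, where edgeR gave 597 and 785 genes at an unadjusted p under 0.05. The mean log2 CPM of the striatal list was 3.75 to 4.66 in wild type and 2.97 to 3.74 in knockout. That of the choroid list was 2.53 to 2.71 in wild type and -0.47 to 2.29 in knockout. Neither mean overlapped between the genotypes, although the striatal ranges nearly met and the summed CPM of both lists overlapped. These fits therefore cannot fully tell the covariate apart from genotype. Leaving out 1 library gave 15 to 182 genes: 15, 21 and 17 when wild-type replicate 2, 4 or 5 was dropped, then 17, 37 and 182 when knockout replicate 3, 6 or 8 was. The number of correlated pairs was 0 to 2 without 1 library. Changes of sign occurred in values close to 0: Nrxn3 was at 0.0054 and Nlgn2 at 0.027 with the striatal covariate, and Nlgn1 at 0.010 and Lrrtm3 at -0.010 with the choroid covariate. Without 1 library, the log2 fold change of Lrrtm3 ran from -0.012 to 0.049 and that of Lrrtm1 from -0.011 to 0.056. The log2 ratio differences ran from -0.025 to 0.039 for Nrxn2/Nrxn3, -0.039 to 0.035 for Nlgn1/Nlgn2, -0.014 to 0.060 for Nlgn1/Nlgn3, -0.021 to 0.052 for Nlgn2/Nlgn3, -0.062 to 0.046 for Lrrtm1/Lrrtm3 and -0.054 to 0.052 for Lrrtm2/Lrrtm4. The cause of these shifts was not tested.

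The genotypes share 2 replicate numbers, 5 and 6, whose libraries did not deviate together (r -0.03 and -0.06). These 2 correlations cannot show whether the samples share more than a number, such as a litter. With the replicate block, where only replicates 5 and 6 inform the genotype difference, 27 genes were called, none of them a member. In that fit the log2 fold change was -0.084 for Nrxn2, -0.14 for Nrxn3, -0.032 for Nlgn1, -0.073 for Nlgn2, -0.10 for Nlgn3, 0.0069 for Lrrtm1, 0.074 for Lrrtm2, -0.036 for Lrrtm3 and 0.0099 for Lrrtm4, with unadjusted p from 0.229 to 0.958.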
